A study of Mus musculus with 70 samples.

Results

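The nuclear receptor genes other than the thyroid hormone receptors and the retinoid X receptors were followed in mouse pituitary RNA and at their loci in 3 chromatin peak lists. The set held 37 genes, chosen by gene symbol, of the 22835 gene symbols in the RNA-seq table, and each gene was read from its transcript with the highest mean level. RNA came from pools of 3 frozen pituitaries of adult male C57BL/6J mice, 2 to 4 months old, in 4 groups. Hypothyroid wild-type mice (4 libraries) and hypothyroid Thrb-KO mice (5 libraries, labelled as deficient in Thrb, the TRβ gene) received methimazole (MMI, 0.05%) with potassium perchlorate (1%) in drinking water for 4 to 5 weeks. Hyperthyroid wild-type mice (4 libraries) and hyperthyroid Thrb-KO mice (5 libraries) received the same agents, with T3 (triiodothyronine, the active thyroid hormone) at 0.5 µg/ml in the final 1 week, so every RNA group carried the goitrogens and none was untreated. Binding of TRβ was listed for untreated pituitary and untreated cerebral cortex of mice called HAB;BirA, in which tagged TRβ (Thrb HAB/HAB) is biotinylated by BirA from the Rosa26 locus (Rosa26 BirA/BirA) and pulled down with its DNA, against mice called BirA with the Rosa26 alleles but no tag, with tissue pooled over animals. These mice were males, by the methods adults of 2 to 4 months. The labels give C57BL/6J for them too, whereas the methods of the study describe a mixed background. The third list held T3-regulated open chromatin (ATAC-seq, which marks DNA accessible to a transposase) in Sun1-GFP nuclei of mice given the hypothyroid and hyperthyroid treatments described for RNA, purified by a Cre driven from the Thrb b2 promoter, so those peaks concern the cells of that lineage only. By the methods these were adult males of 2 to 4 months, Thrb b2Cre/+ with Rosa26 Sun1-GFP/Sun1-GFP. Their background was mixed too by the methods and C57BL/6J by the labels.

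Nuclear receptors are transcription factors that bind DNA through zinc fingers, and in most of them a small lipid-soluble ligand changes which cofactors they hold. Steroid receptors such as the glucocorticoid, mineralocorticoid, estrogen and progesterone receptors bind DNA mostly as pairs of themselves, whereas the vitamin D, retinoic acid, PPAR, liver X and farnesoid X receptors pair with a retinoid X receptor, as the thyroid hormone receptors do. In the pituitary, glucocorticoid and estrogen receptors carry feedback from the adrenal and the gonads, and the NR4A receptors are induced within minutes to hours by releasing hormones.

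Libraries held 21453548 to 55273748 reads, and Pearson's r of log levels between libraries of 1 group was 0.974 to 0.999. Within every group the libraries fell into replicates 1 and 2 against replicates 3 to 5, since Lars2, a mitochondrial synthetase gene whose counts often carry ribosomal reads, stood at 2571 to 3420 CPM (the read count scaled to the library total) in the former and 53.2 to 95.1 CPM in the latter. The labels do not name this split, so values within each set are given where they changed a result. Thrb RNA, the check of the genotype, was 257 ± 27.3 CPM (SD, n = 4) in hypothyroid and 104 ± 22.8 CPM (n = 4) in hyperthyroid wild-type pituitary. The libraries labelled Thrb-KO showed no lower level, at 271 ± 20.1 CPM (n = 5) and 260.2 ± 32.0 CPM (n = 5). The table counts the whole transcript, so this value does not check a deletion of part of the gene, and the groups are called by their labels. Cell type markers moved with treatment. The summed level of the thyrotroph markers Tshb and Trhr went from 2967–6525 CPM in hypothyroid to 44.0–425 CPM in hyperthyroid wild-type libraries, and that of the lactotroph markers Prl and Drd2 from 5951–9436 to 14670–53270 CPM. The summed immune markers (Ptprc, Csf1r, Cd68) were 50.6 to 55.2 CPM in hypothyroid wild-type against 29.3 to 35.0 CPM in hypothyroid Thrb-KO libraries. No marker of the 10 cell type lists and the red cell list was at 0 in every library of a group. Pituitary was measured as bulk tissue, so fewer cells of a type and less RNA per cell cannot be told apart, and the part of cell makeup in the results below was not tested.

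Of the 37 receptors, 27 were above 1 CPM in all 18 libraries and entered the test over 13145 genes, 3 (Nr1h4, Nr5a2, Pparg) were above 1 CPM in at least 4 libraries, and 7 were measured at lower levels. The group mean levels ran from 0 CPM for Hnf4a in hypothyroid wild-type pituitary to 248 CPM for Esr1 in hyperthyroid wild-type pituitary. Per kilobase of longest transcript, the highest receptors in hypothyroid wild-type pituitary were Nr4a1, an orphan receptor induced by stimulation, at 97.5 ± 27.7 CPM per kb (SD, n = 4), and Nr1d1, the clock repressor REV-ERBα, at 72.0 ± 9.34 CPM per kb. These first 2 did not differ beyond their spread. Nr3c1 (glucocorticoid receptor), Nr1h2 (liver X receptor β), Esr1 (estrogen receptor α), Nr4a2 and Nr1d2 followed within 18.2 to 23.3 CPM per kb, all within the spread of their neighbours. Nr1d1 overlaps Thra, the TRα gene, on the other strand, and the library protocol does not mark strand, so reads in that overlap cannot be told apart. Vdr, the vitamin D receptor, stood 18th of 37 in hypothyroid wild-type pituitary at 3.62 ± 0.141 CPM per kb and 27th in hypothyroid Thrb-KO pituitary at 0.468 ± 0.145 CPM per kb.

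**Figure D1:**
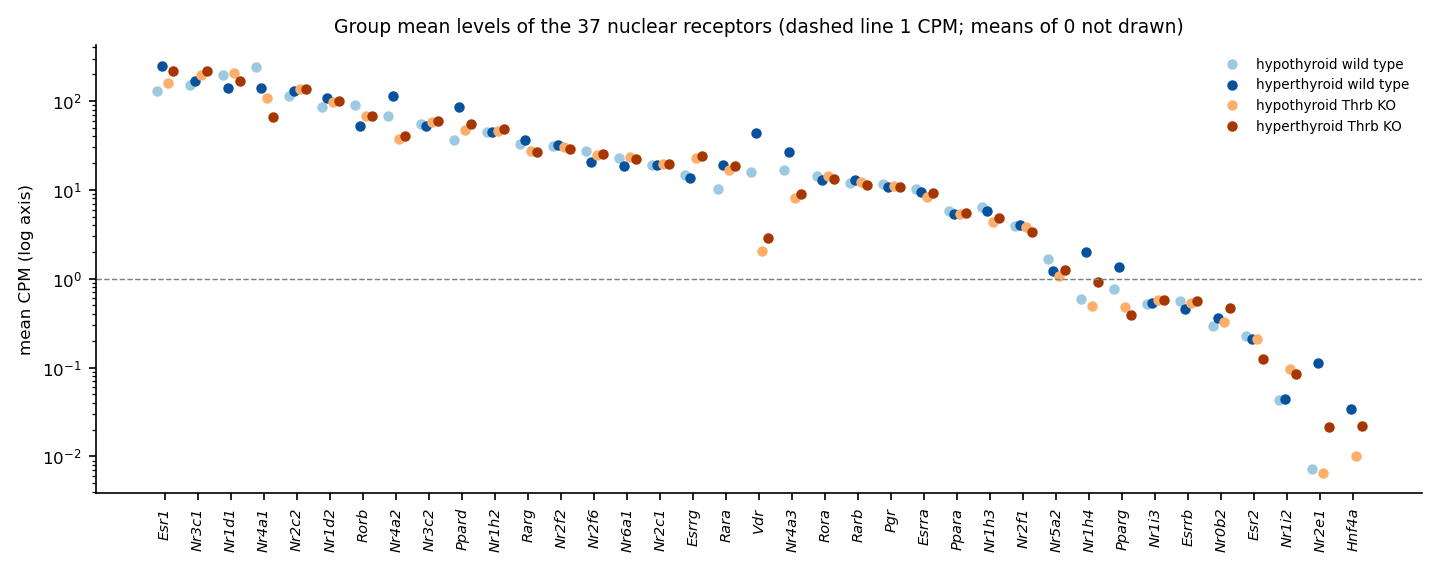
Mean level in CPM (log axis) of each of the 37 nuclear receptors in the 4 groups, 1 point per group, ordered by level. The 7 receptors at the right lie under the dashed line of 1 CPM in every group, and Vdr is the receptor whose group means lie farthest apart among those above the line.

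TRβ peaks were found within 20 kb of the gene body of 19 of the 37 receptors in pituitary. Among the 27 tested receptors 16 had one (59.3%), beside 41.3% of 12898 tested genes with coordinates. The receptor genes are longer than most, with a median of 56206 bp against 25010 bp, and a longer gene offers more room for a peak. In cortex 12 receptors had a peak, all of them tested (44.4% of 27, beside 34.9% of the tested genes). A T3-regulated ATAC peak lay near 5 receptors, of which 4 were tested (14.8% of 27, beside 7.79%). The 19 receptors held 50 pituitary peaks, of which 27 were intronic, 10 upstream, 6 downstream, 4 at a transcription start, 2 in a coding exon and 1 in an untranslated exon. These peaks carried 10 to 166 HAB;BirA reads (median 21.5), against medians of 18 HAB;BirA reads and 2 BirA reads over the 8051 peaks of the list. Peaks were called on merged libraries, so no replicate spread stands behind them. The repeat looked for was DR4, a pair of half-sites AGGTCA and AGGTCA in the same direction with 4 bases between them, searched on both strands with at most 2 mismatches over the 12 bases. It was present in 12 of the 50 pituitary peaks (24%), beside 20.9% of all 8051 peaks, and in 0 of the 17 cortex peaks at these loci, beside 9.3% of the 5164 peaks of that list. A match is a description of letters and not a shown binding site. Positions are given on mouse genome build mm9, and in the sequences capitals mark the 2 half-sites.

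**Figure D2:**
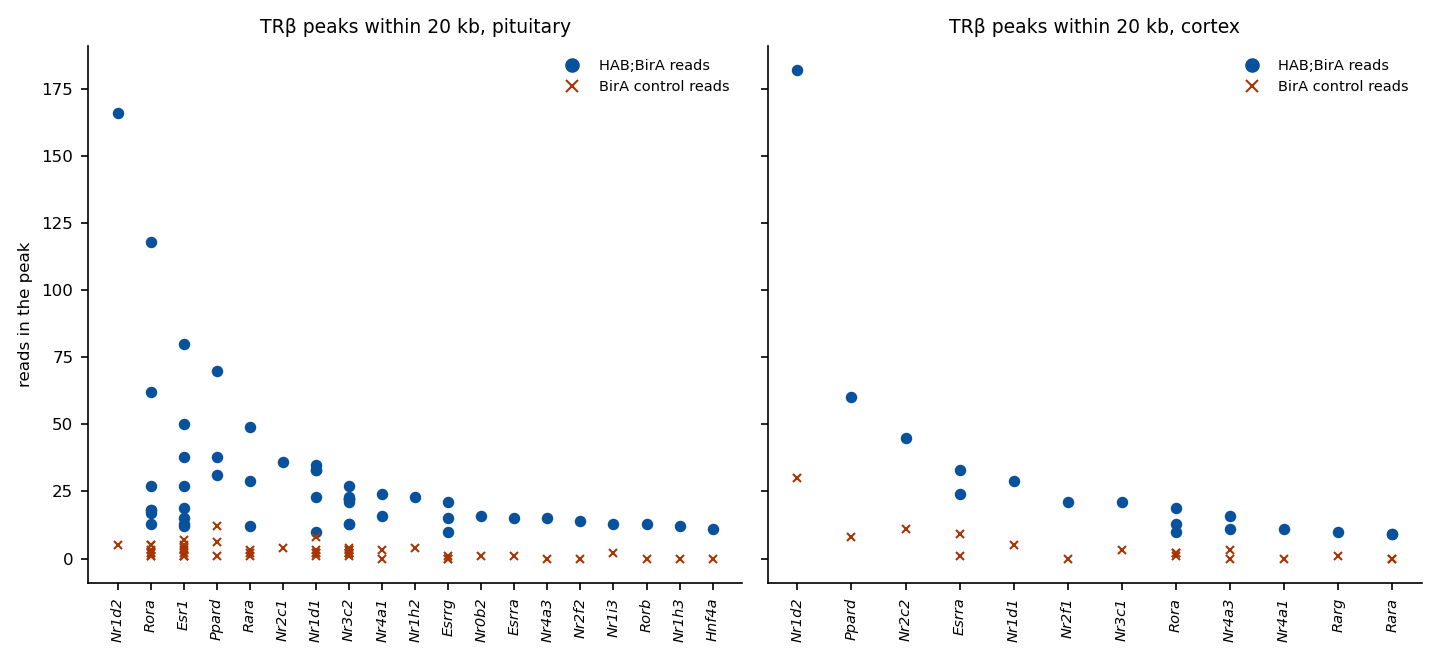
Reads in each TRβ peak within 20 kb of a nuclear receptor gene, in pituitary (left, 50 peaks) and cortex (right, 17 peaks), with HAB;BirA reads as circles and BirA control reads as crosses. The tallest peak in both tissues lies at Nr1d2, with 166 reads in pituitary and 182 in cortex.

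In wild-type pituitary, 5 of the 27 tested receptors differed between hyperthyroid and hypothyroid mice. Vdr, Ppard, Rara and Esr1 were higher and Rorb was lower, and the fitted changes ran from 1.7-fold to 2.5-fold. The share called was 18.5%, beside 9.46% of all 13145 genes (3.87% higher and 5.59% lower), at an adjusted p under 0.05 (limma on log2(CPM + 1), Benjamini-Hochberg over all genes tested) and at least a 1.5-fold change on that scale, which understates changes of low genes. All genes called were 509 higher and 735 lower, and 756 higher and 683 lower with DESeq2's size factors, while the receptor calls were the same 4 and 1. The median change of the 27 receptors was -0.02 in log2, beside -0.04 over all genes.

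Vdr (chr15:97684856-97741061, minus strand) encodes the receptor for active vitamin D. Its level was 15.9, 16.03, 15.0 and 16.5 CPM in the 4 hypothyroid wild-type libraries and 59.6, 49.8, 30.0 and 33.0 CPM in the 4 hyperthyroid ones. All hyperthyroid libraries stood above all hypothyroid ones, and among the hyperthyroid ones replicates 1 and 2 stood above 3 and 4. The log2 change was 1.33 ± 0.20 (SE, adjusted p = 5.95e-05, limma), and it was 1.71 within replicates 1 and 2 and 0.96 within replicates 3 and 4. No peak of any list lay within 20 kb of Vdr. The nearest pituitary TRβ peak was 34540 bp from the gene body, the nearest cortex peak 108656 bp and the nearest T3-regulated ATAC peak 513872 bp.

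Ppard (chr17:28369699-28438414, plus strand) encodes PPARδ, a fatty acid sensor of oxidative tissues. Its hypothyroid wild-type libraries were at 39.9, 37.8, 34.0 and 34.1 CPM and its hyperthyroid ones at 97.9, 93.5, 62.0 and 88.0 CPM. The groups did not overlap, and the lowest hyperthyroid library was replicate 3. The log2 change of 1.19 ± 0.11 (SE, adjusted p = 2.56e-07, limma) was the most precisely fitted rise among the receptors. Ppard held 3 pituitary TRβ peaks. The one upstream (chr17:28363001-28363550, 70 HAB;BirA reads and 12 BirA reads) was overlapped by a cortex peak with 60 and 8 reads, one was intronic (31 and 1 reads) and one lay over an internal transcription start (chr17:28408351-28408850, 38 and 6 reads). The last contained a repeat with 10 of 12 bases matched, shown here on the plus strand, chr17:28408575-28408634.
Ppard: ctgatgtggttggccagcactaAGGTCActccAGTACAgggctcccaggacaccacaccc

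Rara (chr11:98789132-98836256, plus strand) encodes retinoic acid receptor α. Hypothyroid wild-type libraries were at 13.0, 11.3, 8.999 and 7.40 CPM and hyperthyroid ones at 22.1, 21.7, 15.2 and 17.6 CPM. The groups did not overlap. The log2 change was 0.86 ± 0.15 (SE, adjusted p = 0.000377, limma), and all 4 Rara transcripts in the table were called in the same direction. Rara held 3 pituitary TRβ peaks, an intronic one, one over an internal transcription start (29 HAB;BirA reads and 2 BirA reads) and one over an untranslated exon (chr11:98811051-98811700, 49 and 3 reads). The repeat in the last, with 10 of 12 bases matched, lies on the minus strand outside the exon, chr11:98811190-98811249. The 2 cortex peaks at Rara, with 9 reads each, did not overlap the pituitary peaks.
Rara: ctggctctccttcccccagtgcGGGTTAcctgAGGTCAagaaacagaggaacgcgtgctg

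Esr1 (chr10:5340927-5734948, minus strand) encodes estrogen receptor α, prominent in gonadotrophs and lactotrophs. Hypothyroid wild-type libraries were at 163, 186, 77.2 and 90.2 CPM and hyperthyroid ones at 314, 331, 140.3 and 207 CPM. The groups overlapped, because hyperthyroid replicate 3 lay under hypothyroid replicates 1 and 2, but within replicates 1 and 2 and within replicates 3 and 4 they did not. The log2 change was 0.95 ± 0.30 (SE, adjusted p = 0.0305, limma), 0.88 within replicates 1 and 2 and 1.02 within replicates 3 and 4. The call was lost without hypothyroid replicate 3 (0.74, adjusted p = 0.118), hypothyroid replicate 4 (0.81, adjusted p = 0.102), hyperthyroid replicate 1 (0.81, adjusted p = 0.0933) or hyperthyroid replicate 2 (0.79, adjusted p = 0.0967). These losses were in the model without the replicate set. With the split of replicates 1 and 2 from the others as a term, the Esr1 change of 0.95 was called (adjusted p = 1.27e-05, limma). It was also called within replicates 1 and 2 (adjusted p = 6e-07, limma) and within replicates 3 and 4 (adjusted p = 0.00261, limma). Of the lactotroph markers, Prl was called higher with T3 in wild type and in labelled Thrb-KO, and Drd2 was not called. None of the gonadotroph markers (Fshb, Lhb, Gnrhr, Nr5a1) was called for T3 in wild type. The part of these cells in the Esr1 value was not tested. Esr1 shared with Nr3c2 the highest number of pituitary TRβ peaks among the receptors, 8 each, and it had no cortex peak. The 2 tallest were intronic, at chr10:5632401-5633000 (80 HAB;BirA reads and 4 BirA reads) and chr10:5559201-5559550 (50 and 1 reads). Both contained a repeat with 10 of 12 bases matched, as did another intronic peak with 15 and 2 reads, and the windows are chr10:5632787-5632846 (minus strand), chr10:5559337-5559396 and chr10:5536710-5536769 (plus strand).
Esr1, 80-read peak: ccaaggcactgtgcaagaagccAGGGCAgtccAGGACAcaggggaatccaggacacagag
Esr1, 50-read peak: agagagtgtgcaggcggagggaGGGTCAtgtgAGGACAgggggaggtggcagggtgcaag
Esr1, 15-read peak: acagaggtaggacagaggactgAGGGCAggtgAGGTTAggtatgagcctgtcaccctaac

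Rorb (chr19:19005095-19185686, minus strand), a retinoid-related orphan receptor known from retina and neural circuits, was the one receptor called lower. Its hypothyroid wild-type libraries were at 81.2, 92.8, 84.4 and 99.9 CPM and its hyperthyroid ones at 54.1, 48.5, 54.6 and 52.5 CPM. The groups lay well apart. The log2 change was -0.76 ± 0.09 (SE, adjusted p = 6.08e-06, limma), with -0.75 within replicates 1 and 2 and -0.77 within replicates 3 and 4. One pituitary TRβ peak lay at Rorb, over a coding exon, with 13 HAB;BirA reads and 0 BirA reads, and no cortex or ATAC peak did.

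Nr1d1 and Nr2f6 (an orphan receptor of the COUP-TF group) passed the adjusted p but not the fold limit. Nr1d1 was at 196 ± 25.4 CPM in hypothyroid and 138 ± 27.4 CPM in hyperthyroid wild-type pituitary (SD, n = 4 each), a log2 change of -0.52 ± 0.14 (adjusted p = 0.0119, limma). It was called without hypothyroid replicate 2 (-0.59) or hyperthyroid replicate 2 (-0.60) and within replicates 3 and 4 (-0.83), and it was -0.21 within replicates 1 and 2. Nr2f6 was at 27.3 ± 1.65 and 20.4 ± 2.46 CPM, a log2 change of -0.40 ± 0.10 (adjusted p = 0.00616, limma). The 20 remaining tested receptors had fitted log2 changes between -0.94 (Nr4a1) and 0.78 (Nr4a2), and both of those ends came from genes with wide spread between libraries (adjusted p = 0.241 and 0.378).

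**Figure D3:**
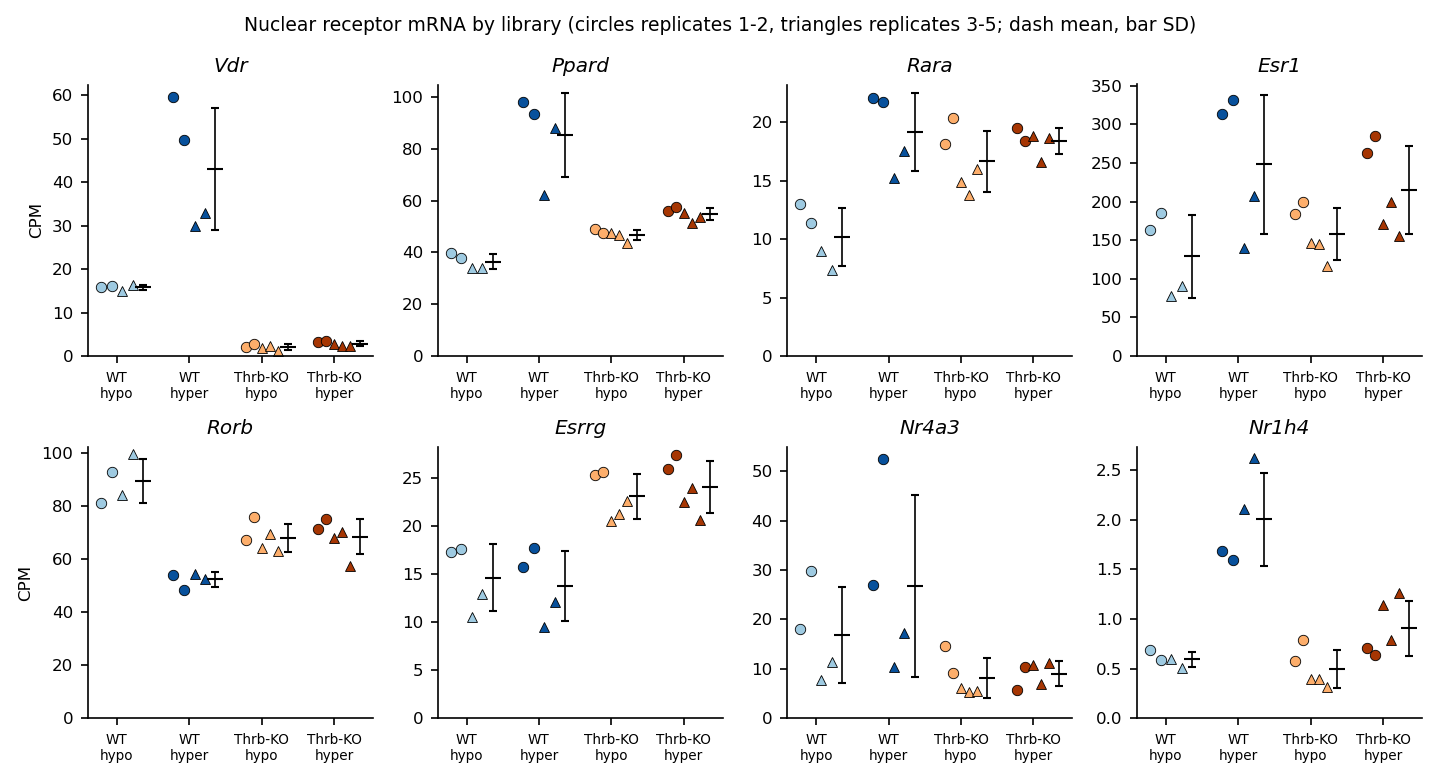
CPM of 8 receptors in every library, by group (hypo, hypothyroid; hyper, hyperthyroid), with circles for replicates 1 and 2, triangles for replicates 3 to 5, a dash at the mean and a bar of 1 SD. Vdr lies between 30.0 and 59.6 CPM in hyperthyroid wild-type libraries and at 3.45 CPM or less in all 10 libraries labelled Thrb-KO, and Ppard, Rara and Rorb move between the 2 wild-type groups while the 2 groups labelled Thrb-KO lie close together.

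Among libraries labelled Thrb-KO, no tested receptor was called between hyperthyroid and hypothyroid mice, beside 1.01% of all genes (0.411% higher and 0.601% lower, 133 of 13145). At an unadjusted p under 0.05, 2 receptors passed, and edgeR and DESeq2 on the recovered reads each called 0 of the 27. Nr4a1 was called lower within replicates 1 and 2 alone (log2 change -1.71, adjusted p = 0.0194). The question of whether the response itself differed was asked with the interaction, the response in labelled Thrb-KO minus that in wild type. It was called for 4 of the 27 receptors (14.8%), beside 4.26% of all genes (2.48% higher and 1.78% lower). These were Ppard, Rara and Vdr, with less positive responses, and Rorb, with a less negative one.

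Ppard was at 49.0, 47.7, 47.3, 46.6 and 43.6 CPM in the hypothyroid and at 56.0, 57.6, 55.4, 51.2 and 53.7 CPM in the hyperthyroid libraries labelled Thrb-KO. These groups did not overlap but lay close, a log2 change of 0.22 that was not called, and the interaction was -0.96 ± 0.15 (SE, adjusted p = 0.000425, limma). Rorb was at 67.1, 76.1, 64.3, 69.4 and 63.1 CPM and at 71.3, 75.3, 68.0, 70.2 and 57.6 CPM in the same groups. These overlapped fully, and the interaction was 0.77 ± 0.12 (adjusted p = 0.000663, limma). Both calls were kept under every one of the 28 alternatives.

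The interactions of Rara and Vdr were less firm. Rara was at 18.1, 20.3, 14.9, 13.8 and 16.02 CPM in the hypothyroid and at 19.5, 18.3, 18.8, 16.6 and 18.6 CPM in the hyperthyroid libraries labelled Thrb-KO, all above every hypothyroid wild-type library. Its interaction of -0.72 ± 0.20 (SE, adjusted p = 0.0469, limma) was lost when any 1 of 14 libraries was left out, with values from -0.75 to -0.59 and adjusted p from 0.0557 to 0.108, and it was kept without hypothyroid wild-type replicate 1 or 2, hyperthyroid wild-type replicate 3 or hypothyroid Thrb-KO replicate 4. It was also lost within replicates 3 to 5 (-0.66, adjusted p = 0.0585) and with no filter on low values (adjusted p = 0.0623). Vdr was at 2.12, 2.81, 1.81, 2.37 and 1.12 CPM and at 3.31, 3.45, 2.86, 2.30 and 2.24 CPM in the same groups. These overlapped, and rested on 35 to 124 reads a library against 454 to 2649 in wild type. The Vdr interaction of -0.99 ± 0.26 (adjusted p = 0.0327, limma) was lost without any 1 of 12 libraries (-1.01 to -0.82, adjusted p from 0.0503 to 0.0711) and kept without hyperthyroid wild-type replicate 3 or 4, hypothyroid Thrb-KO replicate 3 or 5, or hyperthyroid Thrb-KO replicate 1 or 2. The Vdr call was lost too with edgeR (-0.996, adjusted p = 0.0647), with a pseudocount of 0.25 (-0.92, adjusted p = 0.105), with no filter on low values (adjusted p = 0.0503) and within replicates 3 to 5 (-0.61, adjusted p = 0.242). With the replicate set as a term of the model both interactions stayed called (limma, adjusted p = 0.000851 for Rara and 0.00172 for Vdr). Over all genes the interaction calls split 326 higher and 234 lower, and 274 higher and 301 lower after TMM scaling, which left the receptor calls as they were.

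**Figure D4:**
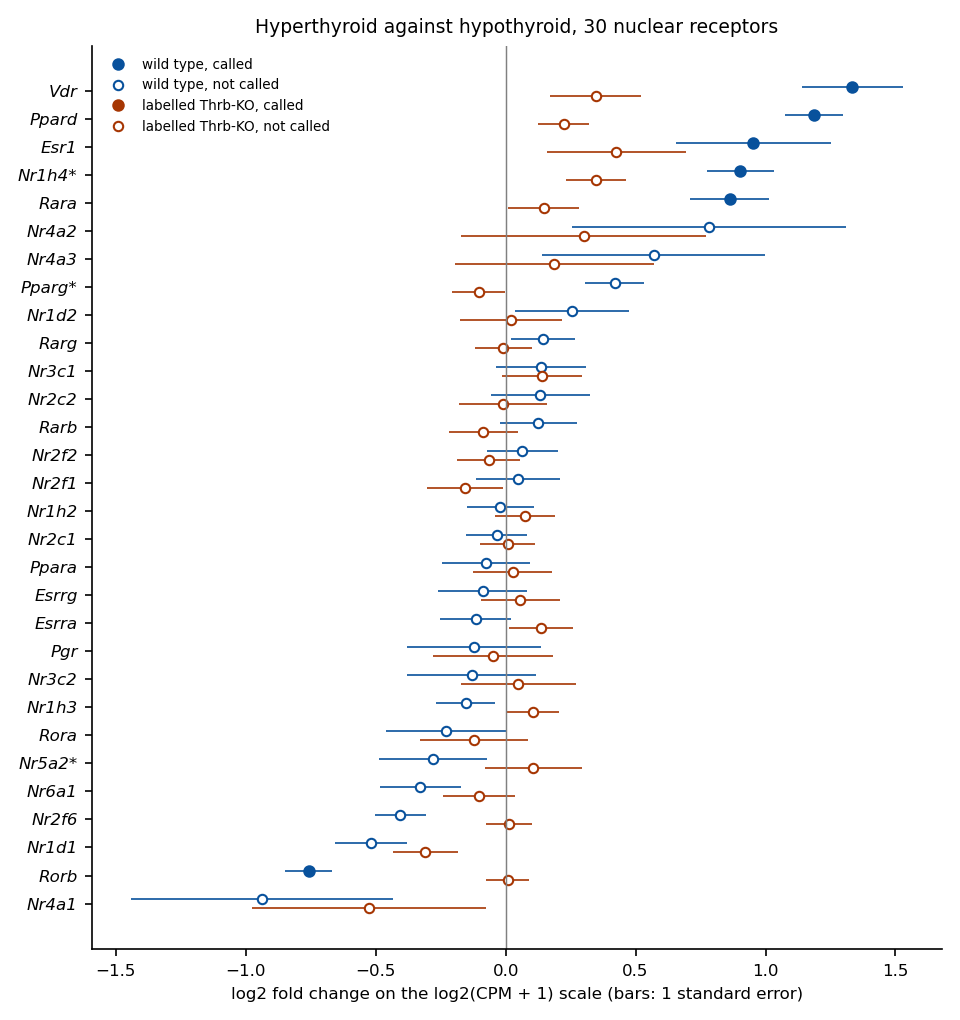
Log2 fold change of 30 receptors between hyperthyroid and hypothyroid mice on the log2(CPM + 1) scale, in wild type (blue) and labelled Thrb-KO (brown), with bars of 1 standard error, filled circles for called changes and an asterisk for receptors read from the wider gene set. Vdr, Ppard, Esr1, Nr1h4, Rara and Rorb are filled in wild type, and no brown circle is filled.

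The genotype comparison within hypothyroid mice called 3 of the 27 receptors (11.1%), beside 3.02% of all genes (1.01% higher and 2.01% lower). Vdr was lower and Esrrg and Rara were higher in the libraries labelled Thrb-KO. Within hyperthyroid mice 4 receptors were called (14.8%), beside 4.86% of all genes (2.54% higher and 2.32% lower), with Vdr, Ppard and Nr4a3 lower and Esrrg higher. The calls over all genes were 334 higher and 305 lower in hyperthyroid mice, and 298 higher and 590 lower with DESeq2, where the 4 receptors kept their calls. Each of these comparisons shares its libraries with the T3 comparisons, so the values of 1 gene in several comparisons are not independent.

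Vdr had the largest genotype difference among the receptors. With the library values given above, the groups did not overlap in either state, and the log2 difference was -2.49 ± 0.19 (SE, adjusted p = 1.05e-07, limma) in hypothyroid and -3.48 ± 0.19 (adjusted p = 6.92e-10) in hyperthyroid mice. Both calls were kept under all 28 alternatives. In hypothyroid mice the summed immune markers were lower in the libraries labelled Thrb-KO without overlap, as given above, and of them only Csf1r was called. In hyperthyroid mice these sums overlapped (33.05 to 56.04 CPM in wild type and 29.28 to 36.03 CPM in labelled Thrb-KO). Within hyperthyroid mice the summed folliculostellate and stem markers (Sox2, S100b, Aldh1a2) were 65.1 to 75.7 CPM in wild type and 44.0 to 56.1 CPM in the libraries labelled Thrb-KO. Of these only Aldh1a2 was called, and in hypothyroid mice the sums overlapped (59.29 to 66.25 against 48.83 to 59.57 CPM). The part of these cells in the Vdr difference was not tested.

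Rara was higher by 0.67 ± 0.14 in log2 (SE, adjusted p = 0.0066, limma) in hypothyroid libraries labelled Thrb-KO and did not overlap the wild type. The call was lost without hypothyroid wild-type replicate 4, where the difference of 0.54 was under the fold limit. In hyperthyroid mice its difference was -0.04. Ppard differed in both states. In hypothyroid mice it was higher by 0.35 ± 0.10 (adjusted p = 0.0479, limma), under the fold limit, and in hyperthyroid mice it was lower, at -0.61 ± 0.10 (adjusted p = 0.000548, limma). The latter fell under the fold limit without hyperthyroid wild-type replicate 1 (-0.54) or 2 (-0.56), and within replicates 3 to 5 (-0.46). Rorb likewise had opposite signs, -0.39 (adjusted p = 0.00835) and 0.38 (adjusted p = 0.0066), both under the fold limit.

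Esrrg (chr1:189432670-190038764, plus strand) encodes estrogen-related receptor γ, an orphan receptor of energy metabolism. It did not respond to T3 in either genotype at the level of the test, with log2 changes of -0.09 and 0.06. Its hypothyroid and hyperthyroid wild-type libraries were at 17.4, 17.7, 10.5 and 12.9 CPM and at 15.7, 17.7, 9.53 and 12.1 CPM, and those labelled Thrb-KO at 25.4, 25.7, 20.6, 21.3 and 22.6 CPM and at 25.9, 27.4, 22.5, 24.0 and 20.6 CPM. Every library labelled Thrb-KO stood above every wild-type library. The log2 difference was 0.65 ± 0.16 (SE, adjusted p = 0.0183, limma) in hypothyroid and 0.79 ± 0.16 (adjusted p = 0.00261) in hyperthyroid mice. The first was lost without hypothyroid wild-type replicate 3 (0.51, adjusted p = 0.0833) or 4 (0.60, adjusted p = 0.0685), and it fell under the fold limit within replicates 1 and 2 (0.52). Esrrg held 3 intronic pituitary TRβ peaks of 10 to 21 HAB;BirA reads and 0 or 1 BirA reads and no cortex peak. The tallest (chr1:189702651-189702900) contained a repeat with 10 of 12 bases matched on the plus strand, chr1:189702768-189702827.
Esrrg: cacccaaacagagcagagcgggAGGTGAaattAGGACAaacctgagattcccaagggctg

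The NR4A receptors, orphan receptors whose genes respond within an hour to many stimuli, had the largest standard errors of the tested receptors. Nr4a3 (chr4:48058025-48099319, plus strand) was at 18.1, 29.9, 7.71 and 11.5 CPM in hypothyroid wild-type, 27.0, 52.5, 10.3 and 17.2 CPM in hyperthyroid wild-type, 14.6, 9.26, 6.15, 5.26 and 5.50 CPM in hypothyroid Thrb-KO and 5.79, 10.4, 10.7, 7.03 and 11.2 CPM in hyperthyroid Thrb-KO libraries. In wild type replicates 1 and 2 were high, and the hyperthyroid groups overlapped through wild-type replicate 3. The hyperthyroid difference was -1.27 ± 0.41 in log2 (SE, adjusted p = 0.0483, limma). It was lost without any 1 of 14 libraries (-1.40 to -0.88, adjusted p from 0.0546 to 0.152) and kept without hypothyroid wild-type replicate 2 or 3, hyperthyroid wild-type replicate 3 or hypothyroid Thrb-KO replicate 1, and it was -2.14 within replicates 1 and 2 and -0.46 within replicates 3 to 5 (adjusted p = 0.163). With no filter on low values its adjusted p was 0.0754. Its relatives had values in the same direction that were not called. Nr4a1 was at 241 ± 68.4, 139 ± 73.8, 109 ± 90.4 and 65.8 ± 33.6 CPM in the 4 groups in the same order, with genotype differences of -1.42 ± 0.48 (hypothyroid, adjusted p = 0.0898) and -1.01 ± 0.48 (hyperthyroid, adjusted p = 0.202). The hypothyroid difference of Nr4a1 was called without hypothyroid Thrb-KO replicate 1 (-1.82, adjusted p = 0.0142) or hyperthyroid wild-type replicate 3 (-1.42, adjusted p = 0.0404), and with the replicate set (1 and 2 against 3 to 5) as a term of the model (-1.38, adjusted p = 0.0416). Its hyperthyroid difference was called within replicates 1 and 2 alone (-2.07, adjusted p = 0.00175). Nr4a2 was at 68.3 ± 43.4, 113 ± 60.3, 37.5 ± 24.3 and 40.6 ± 15.0 CPM, with a hyperthyroid difference of -1.37 ± 0.50 (adjusted p = 0.0863) that was called with edgeR (-1.53, adjusted p = 0.0481), with DESeq2 (-1.53, adjusted p = 0.0258) and without hyperthyroid wild-type replicate 3 (-1.70, adjusted p = 0.041). The Nr4a2 call was likewise made with the replicate set as a term (-1.31, adjusted p = 0.0403) and within replicates 1 and 2 alone (-2.33, adjusted p = 0.000156), where the hypothyroid difference was called as well (-1.16, adjusted p = 0.0374). One pituitary TRβ peak with 15 HAB;BirA reads and 0 BirA reads lay 225 bp upstream of Nr4a3, Nr4a1 had 2 upstream pituitary peaks of 24 and 16 reads, and no TRβ peak lay within 20 kb of Nr4a2.

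**Figure D5:**
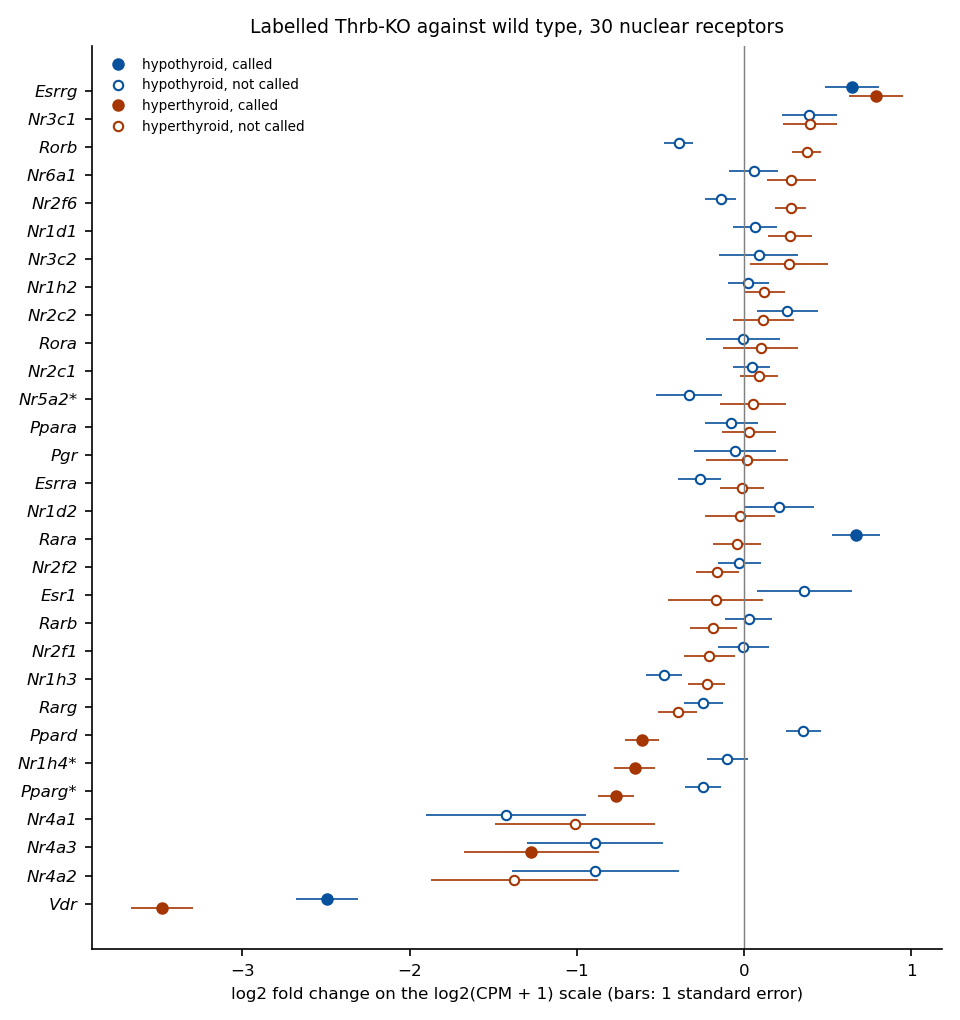
Log2 difference of 30 receptors between libraries labelled Thrb-KO and wild type on the log2(CPM + 1) scale, in hypothyroid (blue) and hyperthyroid (brown) mice, with bars of 1 standard error, filled circles for called differences and an asterisk for receptors read from the wider gene set. Vdr lies at -2.49 and -3.48, Esrrg is filled in both states, and the NR4A receptors have the widest bars.

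Nr1h4, Pparg and Nr5a2 were read from the same model fitted to the 14472 genes above 1 CPM in at least 4 libraries, where 10.4% of genes were called for T3 in wild type and 5.65% for genotype in hyperthyroid mice. Nr1h4 encodes FXR, the bile acid receptor, best known from liver and intestine. It was at 0.685, 0.583, 0.597 and 0.508 CPM in hypothyroid wild-type, 1.69, 1.59, 2.11 and 2.62 CPM in hyperthyroid wild-type, 0.581, 0.785, 0.398, 0.394 and 0.320 CPM in hypothyroid Thrb-KO and 0.706, 0.640, 1.14, 0.788 and 1.26 CPM in hyperthyroid Thrb-KO libraries, from 10 to 100 reads. The hyperthyroid wild-type libraries stood above all others. The T3 change in wild type was 0.90 ± 0.13 in log2 (SE, adjusted p = 3.69e-05, limma) and the hyperthyroid genotype difference -0.65 ± 0.12 (adjusted p = 0.00109), the latter under the fold limit without hyperthyroid wild-type replicate 4 (-0.56). On the reads, without the pseudocount of 1, edgeR gave 1.81 and -1.24 for the same Nr1h4 comparisons. Among libraries labelled Thrb-KO the T3 change of 0.35 was not called, except by DESeq2 (0.88, adjusted p = 0.0483). The Nr1h4 interaction was -0.55 and not called, although it passed after TMM scaling (-0.60, adjusted p = 0.0446), within replicates 1 and 2 alone (-0.70, adjusted p = 0.0221) and without hyperthyroid Thrb-KO replicate 5 (-0.62, adjusted p = 0.0388) or hyperthyroid wild-type replicate 2 (-0.62, adjusted p = 0.0474).

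Pparg encodes PPARγ, the regulator of fat cell formation. Its levels were 0.942, 0.845, 0.643 and 0.616 CPM in hypothyroid wild-type, 1.62, 1.29, 1.30 and 1.20 CPM in hyperthyroid wild-type, 0.581, 0.458, 0.434, 0.460 and 0.480 CPM in hypothyroid Thrb-KO and 0.163, 0.362, 0.405, 0.252 and 0.792 CPM in hyperthyroid Thrb-KO libraries. The wild-type groups did not overlap, and both groups labelled Thrb-KO lay at or under 0.792 CPM. The hyperthyroid genotype difference was -0.77 ± 0.11 in log2 (SE, adjusted p = 6.28e-05, limma), and -1.92 with edgeR and -1.94 with DESeq2 on the reads. The T3 change in wild type of 0.42 (adjusted p = 0.0122) was under the fold limit with the pseudocount of 1 and past it with a pseudocount of 0.25 (0.67, adjusted p = 0.0349), edgeR (0.89, adjusted p = 0.0228) and DESeq2 (0.90, adjusted p = 0.00677). The interaction of -0.52 (adjusted p = 0.049) was under the fold limit too, and was called with DESeq2 (-1.25, adjusted p = 0.0311), within replicates 1 and 2 alone (-0.64, adjusted p = 0.0492) and without hyperthyroid Thrb-KO replicate 5 (-0.62, adjusted p = 0.00574). Nr5a2, the gene of liver receptor homolog 1, was at 1.08 to 1.68 CPM in the group means and was called in no comparison.

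The 7 receptors at the lowest levels are given as values only. Nr1i3 (CAR, a sensor of foreign compounds) was at 0.365 to 0.789 CPM over the 18 libraries, Esrrb (estrogen-related receptor β) at 0.302 to 0.742 CPM, Nr0b2 (SHP, a receptor without a DNA-binding domain) at 0.163 to 0.649 CPM and Esr2 (estrogen receptor β) at 0.0466 to 0.350 CPM. Nr1i2 (PXR, also a sensor of foreign compounds) reached 0.158 CPM with 2 libraries at 0, Nr2e1 (TLX, of neural stem cells) 0.203 CPM with 10 libraries at 0, and Hnf4a (of liver and gut epithelium) 0.137 CPM with 12 libraries at 0. The last 3 had at most 5 reads in any library, and a count of 0 allows up to 3 reads, or 0.0543 to 0.140 CPM depending on the library, counting error only.

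The tested steroid receptors of the set other than Esr1 (Nr3c1, Nr3c2 and Pgr) were not called in any comparison, and Esr2 was too low to test. Nr3c1 was at 150.03 ± 28.0, 167 ± 41.9, 195 ± 14.5 and 217 ± 40.5 CPM in hypothyroid wild-type, hyperthyroid wild-type, hypothyroid Thrb-KO and hyperthyroid Thrb-KO pituitary, with genotype differences of 0.39 (adjusted p = 0.193) and 0.40 (adjusted p = 0.135). Nr3c2, the mineralocorticoid receptor, ranged from 26.9 to 74.7 CPM and Pgr, the progesterone receptor, from 5.84 to 15.9 CPM. The retinoic acid receptor Rarg was at 35.97 ± 5.69 CPM in hyperthyroid wild-type and 26.9 ± 2.48 CPM in hyperthyroid Thrb-KO pituitary, a difference of -0.40 (adjusted p = 0.0316) that was under the fold limit. Nr1h3, the liver X receptor α, was at 6.49 ± 0.454 CPM in hypothyroid wild-type and 4.38 ± 0.512 CPM in hypothyroid Thrb-KO pituitary, a difference of -0.48 (adjusted p = 0.0092) under the fold limit that edgeR (-0.60) and DESeq2 (-0.59) put past it. Nr1h2, its partner isotype, Nr1d2 (REV-ERBβ), Rora, the TR2 and TR4 orphan receptors Nr2c1 and Nr2c2, the COUP-TF genes Nr2f1 and Nr2f2, Nr6a1, Esrra, Ppara and Rarb had log2 differences between -0.33 and 0.29 in all 4 comparisons between groups and none was called.

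Genes that these receptors are known to regulate were counted from a list of 42, of which 36 were tested. In wild type, T3 was followed by 3 called higher and 3 called lower, with a median log2 change of -0.02, and among libraries labelled Thrb-KO by 0 (limma). Over all 13145 genes the shares called were 9.46% and 1.01%. The higher ones were Scd1, a desaturase gene of the liver X receptor list (1.22 in log2), Greb1 of the estrogen receptor list (0.90) and Sgk1, a kinase gene of the corticosteroid receptor list (0.72). The lower ones were Fkbp5, a chaperone gene also of the corticosteroid list (-0.72), Nfil3, the clock output regulator of the REV-ERB and ROR list (-0.68), and Pdk4, a kinase gene of the PPAR list (-0.88). The other 30 tested targets were not called, and the 2 called corticosteroid targets had opposite signs. By genotype, 1 target was higher and 1 lower in hypothyroid mice (Scd1 0.77, Nfil3 -0.91), and 1 was higher and 3 lower in hyperthyroid mice (Fkbp5 0.82, Mylip -0.67, Sgk1 -0.87, Dhrs3 -0.81). Over all genes 3.02% and 4.86% were called in these comparisons. The interaction was called for Nfil3 (0.75) and Dhrs3 (-0.63), the latter a retinoid reductase gene, beside 4.26% of all genes. Cited1, an estrogen receptor target read from the wider set, was at 9.07 ± 3.60 CPM in hypothyroid wild-type pituitary and at 0.843 to 1.098 CPM in the means of the other 3 groups, a T3 change of -2.38 in log2 in wild type, an interaction of 2.42 and a hypothyroid genotype difference of -2.24, all called. Gal, the galanin gene and also an estrogen receptor target of the wider set, was at 2.02 ± 0.494 CPM in hypothyroid wild-type and 0.475 ± 0.125 CPM in hypothyroid Thrb-KO pituitary, and at 1.26 ± 0.358 and 0.312 ± 0.111 CPM in the hyperthyroid groups. Both Gal genotype differences were called, at -1.02 and -0.77 in log2 (adjusted p = 2e-05 and 0.000258, limma). Cyp24a1, the textbook target of the vitamin D receptor, was at group means of 0.0448 to 0.100 CPM, from 0 to 8 reads a library, so no difference was detectable at this depth. Of 7 further nuclear receptor genes, 4 were tested, and Nr5a1, the SF-1 gene of gonadotrophs, was called in 1 comparison, at 31.6 ± 6.09 CPM in hyperthyroid wild-type and 48.3 ± 7.39 CPM in hyperthyroid Thrb-KO pituitary (0.60 in log2, adjusted p = 0.00402, limma).

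The tallest pituitary TRβ peaks at these loci, at Nr1d2 and Rora, lay at receptors whose RNA was not called. The next tallest lay at called receptors, Esr1 (80 HAB;BirA reads) and Ppard (70 HAB;BirA reads). At Nr1d2 an intronic pituitary peak 491 bp from the gene start (chr14:19070551-19071150) had 166 HAB;BirA reads and 5 BirA reads and was overlapped by a cortex peak with 182 and 30 reads. At Rora, whose protein competes with the REV-ERBs for the same elements, an intronic pituitary peak (chr9:68788701-68789100) had 118 and 5 reads and was overlapped by a cortex peak with 19 and 2 reads. Nr1d1 held 5 pituitary peaks, the tallest with 35 and 8 reads, and that one was overlapped by a cortex peak with 29 and 5 reads. Another of the 5 was nearest to the start of Thra and another to that of Msl1. With Ppard, these were the 4 pituitary peaks at receptor loci that a cortex peak overlapped. By member, 8 receptors had TRβ peaks in both tissues, 11 in pituitary only, 4 in cortex only (Nr2c2, Nr2f1, Nr3c1, Rarg) and 14 in neither. Of all tested genes, 41.3% had a peak in pituitary and 34.9% in cortex. Neither this split nor the overlap of peaks was counted over all genes or peaks, so no tissue preference of the receptors is drawn from them. The closest match to the repeat, 11 of 12 bases, was in a pituitary peak 16248 bp upstream of Esrra, which is nearer to the start of Gpr137, and it is shown on the plus strand, chr19:7012636-7012651.
Esrra: AGGTCAtgccAGGGCA

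T3-regulated ATAC peaks lay within 20 kb of Nr2c1, Nr3c2, Esr1, Rarb and Pparg, 7 peaks in all, and the list gives no direction. Nr3c2 had 2, and one of them, chr8:79758122-79758520, overlapped an intronic pituitary TRβ peak with 27 HAB;BirA reads and 2 BirA reads, the one such overlap at these loci. Esr1 had 2 intronic ATAC peaks, neither on a TRβ peak. The peak near Nr2c1 (18022 bp upstream) was closer to the start of Fgd6. None of the 7 held the repeat at 2 mismatches, beside 30.9% of the 1776 peaks of the list.

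The RNA of the receptors beside these peaks was mostly flat, with Esr1 and Pparg described above. Nr3c2 was at 61.0, 72.8, 40.2 and 45.8 CPM in hypothyroid wild-type, 71.4, 67.3, 26.9 and 43.3 CPM in hyperthyroid wild-type, 62.7, 66.3, 51.7, 51.6 and 53.8 CPM in hypothyroid Thrb-KO and 70.4, 74.7, 46.8, 53.9 and 53.5 CPM in hyperthyroid Thrb-KO libraries. Replicates 1 and 2 were the high ones in every group, and the groups overlapped. Nr2c1 was at 18.5, 19.7, 18.8 and 18.7 CPM, 20.7, 23.1, 13.5 and 17.8 CPM, 19.1, 19.6, 20.6, 19.4 and 19.2 CPM, and 20.7, 22.0, 18.0, 20.3 and 17.8 CPM in the same order, with hyperthyroid wild-type replicate 3 lowest. Rarb, the retinoic acid receptor β, was at 15.4, 13.5, 9.30 and 9.68 CPM, 14.0, 13.0, 11.2 and 13.5 CPM, 12.4, 16.2, 10.4, 10.7 and 11.03 CPM, and 10.7, 11.9, 10.2, 11.2 and 12.3 CPM. All 4 Rarb groups overlapped, and the T3 change in wild type was 0.13 in log2.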

How the data were processed

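The deposited RNA table held CPM for 29082 transcripts (22835 gene symbols). Per the labels and the study's methods, the authors prepared oligo(dT) RNA as unstranded cDNA and sequenced single-end reads of 50 bases. By the methods, these were mapped to RefSeq mm9 transcripts with BBMap, while the tools given in the labels include STAR. Of the values in each library, at least 99.988% were whole multiples of 1 read within 0.01, so reads were recovered for edgeR and DESeq2 as alternatives. The TRβ lists gave read counts per peak as deposited, called by the authors with SICER 1.1 (windows of 50 bp, FDR 1e-06) on merged libraries, and the deposited ATAC list gave adjusted p-values only. The titles of the untreated BirA libraries say BirA while another label gives the tagged genotype, and the titles were followed. The deposited p-values of the peak lists served only to rank peaks in 1 alternative, and the deposited fold over control was not used in the text. Peaks were assigned to a gene within 20 kb of its body.

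Genes above 1 CPM in all 18 libraries (13145, 1 transcript a gene) were tested with limma 3.58.1 (R 4.3.3, trend) on log2(CPM + 1), with 1 model of the 4 groups. The fits were tested on simulated data. A change was called at an adjusted p under 0.05 (Benjamini-Hochberg) and at least 1.5-fold. Alternatives used edgeR 4.0.16, DESeq2 1.42.0, other pseudocounts, filters and scalings, the replicate block and left-out libraries. Named genes were all members, by rule, and the called genes of fixed target lists. The members and lists were chosen with earlier results of these data known. The labels do not say whether libraries of a group came from separate cohorts, so p-values measure the spread between pools.

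Same-numbered libraries deviated together (25 pairs, r from 0.130 to 0.815, median 0.529). Libraries of other numbers within the same replicate set did so about as much (r from 0.271 to 0.755, median 0.521). Of 18 libraries, 5 correlated best with their own number. Libraries of different replicate sets deviated in opposite directions (60 pairs, r from -0.779 to -0.243, median -0.548). The numbers therefore showed no pairing beyond the replicate set, and the main model held no replicate block. The main model held no term for the replicate set either, so its standard errors include the difference between the sets. Each wild-type group held 4 libraries and each Thrb-KO group 5, with replicate 5 in the latter only. The sets were therefore unevenly shared between genotypes.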

Additional observations from a re-analysis of the deposited data

Results flagged for a closer look

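The T3 response differed between genotypes for 4 receptors by the interaction term (limma, adjusted over all genes tested). The response in labelled Thrb-KO minus that in wild type was -0.96 in log2 for Ppard (adjusted p = 0.000425), -0.72 for Rara (adjusted p = 0.0469), 0.77 for Rorb (adjusted p = 0.000663) and -0.99 for Vdr (adjusted p = 0.0327). All 4 were also called for T3 in wild type from these same libraries. That their wild-type groups did not overlap is therefore no separate support. For Rara and Vdr the interaction in the model without the replicate set depended on single libraries, as the values with 1 library left out show. For Vdr it rested on few reads in the libraries labelled Thrb-KO. A check of 48 groups (12 receptors in 4 groups) for a library far from the others found 0, where chance gives about 1 in 20. It compares the gap to the next library with the range of the group. A split by replicate set widens that range, so the check could miss a library apart within a set.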

How the results depend on the processing

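Of the 16 called differences of the 27 tested receptors, 9 kept their call under all 28 alternatives and none changed sign. Leaving out 1 library in turn gave 4 to 6 called receptors for T3 in wild type, 0 for T3 in labelled Thrb-KO, 2 to 4 for the interaction, 1 to 4 for genotype in hypothyroid and 2 to 5 in hyperthyroid mice. The count for T3 in labelled Thrb-KO was 1 within replicates 1 and 2 (199 of 13145 genes). The interaction count was 2 with no filter on low values (697 of 21461 genes) and 2 within replicates 3 to 5 (524 of 13145). The hypothyroid genotype count was 6 with no fold limit (901 of 13145). The hyperthyroid count was 2 within replicates 3 to 5 (1114 of 13145) and 6 within replicates 1 and 2 (721 of 13145). The replicate block gave 5, 0, 4, 3 and 4 receptors, and changed no call. For peaks, limiting them to the gene body gave 12 receptors with a pituitary TRβ peak and 3 with an ATAC peak. Among the 27 tested receptors these were 11 (40.7%, beside 23.6% of tested genes) and 3 (11.1%, beside 5.02%). A distance of 5 kb gave 3 for ATAC, all tested (11.1%, beside 5.64%). The ATAC peaks with the lower adjusted p gave 1, also tested (3.7%, beside 3.77%). Widening the distance to 100 kb gave 27 of the 37 receptors in pituitary, 21 in cortex and 7 for ATAC. Among the tested receptors these were 22 (81.5%, beside 70.8% of tested genes), 18 (66.7%, beside 62.9%) and 5 (18.5%, beside 18.2%). With at most 1 mismatch 1 pituitary peak held the repeat, and with at most 3 mismatches 27 pituitary and 8 cortex peaks did. The causes were not tested. Depth limits the 7 lowest receptors and Vdr, Nr1h4 and Pparg in the libraries labelled Thrb-KO, and the pseudocount of 1 shrinks their changes.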
